A study of Mus musculus with 15 samples.

Results

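The genes described here encode antioxidant and detoxification enzymes: AKR1B7, AKR1B8, GSTA2, GSTA3, GSTA4, NQO1, HMOX1, GCLC, GCLM and TXNRD1. All 10 of these 10 genes were present among the 24891 genes of the expression table. The set was chosen by enzyme class after it had been seen in these same data that AKR1B7 and GSTA2 fell with knockdown of B7-H3. For AKR1B7 and GSTA2 every comparison is therefore a description with no test, while the other 8 genes were tested. RNA was measured in tumors grown from 105K cells, a mouse renal tumor line that lacks Tsc2 and has hyperactive mTORC1, after stable knockdown of the immune checkpoint protein B7-H3, which the Cd276 gene encodes. The comparisons ask how the tumors and their tumor cells changed when B7-H3 was reduced.

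All 15 libraries came from tumors under the skin of wild-type C57BL/6J mice with intact immunity. Per the study's methods the hosts were male and 6 weeks old when 105K cells were injected. The libraries formed 5 groups of 3. Sorted tumor cells came from tumors with the non-targeting control shRNA, sh-NC, from tumors with sh-B7-H3 (1), and from tumors with sh-B7-H3 (2), another shRNA against B7-H3. Bulk tumors, sequenced whole, carried sh-NC or sh-B7-H3 (1) only. Every group thus carried a stable shRNA and puromycin selection in a Tsc2-deficient line, and each shRNA line was a mixed pool of transduced cells rather than 1 clone. Sorted means left over after magnetic depletion of non-tumor cells from the dissociated tumor, so no tumor cell marker was used for selection. Nothing in the sources says which libraries came from which mice, and the p-values measure the spread between these libraries.

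The enzymes share a line of control that is well known. The transcription factor NRF2, the product of NFE2L2, is held in the cytoplasm by KEAP1 and degraded. Oxidants and electrophiles modify KEAP1, NRF2 then enters the nucleus with a small MAF partner and binds the antioxidant response element of its target genes. Its best known targets in rodents include NQO1, HMOX1, GCLC, GCLM, TXNRD1 and several glutathione S-transferases, and in kidney tumors the pathway can be active without a stimulus. AKR1B7 and AKR1B8 reduce aldehydes such as those that arise from lipid peroxidation, and AKR1B7 is best known from the adrenal gland and vas deferens. GSTA2, GSTA3 and GSTA4 couple glutathione to electrophiles, with GSTA4 acting on 4-hydroxynonenal. NQO1 reduces quinones, HMOX1 breaks down haem, GCLC and GCLM are the catalytic and modifier subunits of the enzyme that limits glutathione synthesis, and TXNRD1 keeps cytosolic thioredoxin reduced.

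Some of the genes are neighbours in the genome. In GENCODE M21, on the GRCm38 (mm10) build that the submitters' processing notes name, AKR1B8 lies at chr6:34354119-34368463 and AKR1B7 at chr6:34412334-34423142, both on the plus strand. GCLC (chr9:77754535-77794485, plus strand), GSTA4 (chr9:78182774-78209349, plus strand) and GSTA2 (chr9:78331018-78355788, minus strand) share a stretch of chromosome 9. GSTA3 is at chr1:21240589-21265661 and GCLM at chr3:122245557-122270732. HMOX1 is at chr8:75093621-75100589, NQO1 at chr8:107388225-107403206 on the minus strand, and TXNRD1 at chr10:82833951-82897712.

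Promoter sequence was read from RefSeq (GRCm38.p6), which held windows for 7 of the 10 genes and 9 start sites, because most of the members are known NRF2 targets. The 250 bases before each start site were searched on both strands for the core of the antioxidant response element, TGACNNNGC. The core was present in 3 of the 9 windows, those of GSTA3, GCLM and the second of 3 start sites of TXNRD1, and in 10.2% of the 32851 windows of all genes. The AP-1 site TGANTCA, which overlaps the element in some genes, was found in the windows of 0 of the 7 genes and in 6.75% of all windows. A match describes letters only, and the absence of a match concerns this window only. The 3 windows with the core follow, 5′ to 3′ on the gene's strand, with the core in capitals. That of GSTA3 (chr1:21240335-21240584, plus strand) held it on the gene's strand from -121 to -113 of the start site. The bases after that window were not found at the start of a GENCODE transcript of GSTA3, so its positions refer to the RefSeq start site only. Those of GCLM (chr3:122245307-122245556, plus strand) and TXNRD1 (chr10:82858956-82859205, plus strand) held it on the opposite strand, from -134 to -126 and from -92 to -84.
GSTA3: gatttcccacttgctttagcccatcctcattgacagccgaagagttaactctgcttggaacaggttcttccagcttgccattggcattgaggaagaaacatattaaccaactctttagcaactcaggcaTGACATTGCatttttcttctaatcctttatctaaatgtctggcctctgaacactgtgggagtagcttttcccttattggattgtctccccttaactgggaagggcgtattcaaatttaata
GCLM: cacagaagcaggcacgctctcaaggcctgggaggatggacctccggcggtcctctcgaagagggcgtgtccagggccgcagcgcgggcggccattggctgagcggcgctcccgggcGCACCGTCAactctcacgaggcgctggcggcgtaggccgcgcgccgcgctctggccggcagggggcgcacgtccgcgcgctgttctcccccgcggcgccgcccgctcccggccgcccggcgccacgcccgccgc
TXNRD1: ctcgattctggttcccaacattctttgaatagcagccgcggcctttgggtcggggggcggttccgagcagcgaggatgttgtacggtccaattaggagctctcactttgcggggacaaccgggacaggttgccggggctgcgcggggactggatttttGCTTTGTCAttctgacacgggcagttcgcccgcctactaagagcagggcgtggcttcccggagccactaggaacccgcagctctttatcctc

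The windows of the genes whose fall led to the choice are shown beside them, AKR1B7 (chr6:34412112-34412361, plus strand) and GSTA2 (chr9:78347146-78347395, minus strand), and hold no capitals because the core was not found there.
AKR1B7: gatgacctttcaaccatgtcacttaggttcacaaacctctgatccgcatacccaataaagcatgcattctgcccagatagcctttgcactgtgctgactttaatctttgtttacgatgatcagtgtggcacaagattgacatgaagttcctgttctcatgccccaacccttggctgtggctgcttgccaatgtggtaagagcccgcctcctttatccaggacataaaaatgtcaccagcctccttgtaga
GSTA2: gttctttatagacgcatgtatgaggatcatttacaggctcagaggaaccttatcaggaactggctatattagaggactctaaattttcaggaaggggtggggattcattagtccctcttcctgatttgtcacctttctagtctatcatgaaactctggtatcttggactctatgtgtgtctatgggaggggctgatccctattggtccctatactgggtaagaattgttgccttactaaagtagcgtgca

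Expression is given as FPKM, fragments scaled to transcript length and to library total, divided by a factor per library (0.65 to 1.18) so that the middle gene was level across libraries. A gene was called when its Benjamini-Hochberg adjusted p over all genes tested was below 0.05 in limma, an empirical Bayes linear model, on log2(scaled FPKM + 1). All 10 members passed the filter of 1 scaled FPKM in 3 libraries in every comparison. In bulk tumors GSTA2 did so through the 3 sh-NC libraries and 1 of sh-B7-H3 (1). Relative depth was estimated from the steps between low FPKM values and ran from 0.468 to 1 of the deepest library. The share of low value pairs behind this estimate went down to 0.0825, and reads were not counted. The targeted gene did not follow the labels throughout. CD276 stood at 34.0, 20 and 17.3 scaled FPKM in sorted sh-NC and at 7.29, 14 and 11.5 in the libraries labelled sorted sh-B7-H3 (1), which lie below. That fall was not called (log2 fold change -1.04 ± 0.29, limma adjusted p = 0.0547). It was called with all 15 libraries in 1 fit (limma adjusted p = 0.0053) and on FPKM as deposited (0.0325). CD276 stood at 23.3, 25.4 and 25.7 in those labelled sorted sh-B7-H3 (2), within the sh-NC range (0.12 ± 0.23, limma adjusted p = 0.775). Without sorted sh-NC replicate 1 it was called higher than sh-NC there (0.40, limma adjusted p = 0.0362). In bulk it stood at 17.8 to 24.4 in sh-B7-H3 (1) against 20.8 to 23.5 in sh-NC (-0.07 ± 0.13, limma adjusted p = 0.709). Directions below refer to the labels.

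Markers of the tissue were checked too. All 9 renal epithelial markers were expressed in each group, with sums of 799 to 908 scaled FPKM in bulk sh-NC, 1062 to 1412 in bulk sh-B7-H3 (1), 905 to 1101 in sorted sh-NC, 1520 to 1714 in sorted sh-B7-H3 (1) and 1734 to 1883 in sorted sh-B7-H3 (2). Of 8 markers of differentiated proximal tubule, SLC34A1, SLC22A6 and SLC22A8 were listed at 0 in every library. The sums were 10.6 to 17.5 in sorted sh-NC and 4.88 to 8.92 in sorted sh-B7-H3 (1). In sorted sh-B7-H3 (2) the sum was 20.9 in replicate 1 against 3.71 and 4.2 in the others. AQP1 alone made up most of these sums, with means of 13.9, 6.57 and 9.03 in these groups, and KAP was also at 0 in each sorted group. The sums over 10 leukocyte markers were 15.2 to 22.5 in sorted sh-NC and sorted sh-B7-H3 (1) together and 372 to 704 in bulk tumors. Replicate 1 of sorted sh-B7-H3 (2) stood apart from the other sorted libraries, with a leukocyte sum of 380 against 14.9 and 17.0 in its group and a macrophage sum of 397 against 72.3 and 61.6. Its endothelial (28.7 against 1.94 and 1.43), red blood cell (17.5 against 0.972 and 1.31) and adipocyte sums (135 against 33.0 and 37.6) were higher too. Its skeletal muscle sum was lower (40.8 against 70.4 and 71.3). Below it is named as the library with leukocyte RNA, which does not mean leukocytes alone. Other cell types moved with knockdown in bulk tumors, where sums went from 110 to 195 up to 309 to 709 for 10 fibroblast markers, from 2.53 to 21.8 up to 36.4 to 770 for 8 skeletal muscle markers, and from 2.6 to 2.98 up to 6.62 to 21.8 for 8 T cell markers. Bulk sh-B7-H3 (1) replicate 2 stood apart, with 770 for muscle and 551 for adipocyte markers against 12.8 and 70.7 for the latter in its group. Without it the same 5 members were called in bulk as with it. The part of these cells in the bulk results was not tested.

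**Figure D1:**
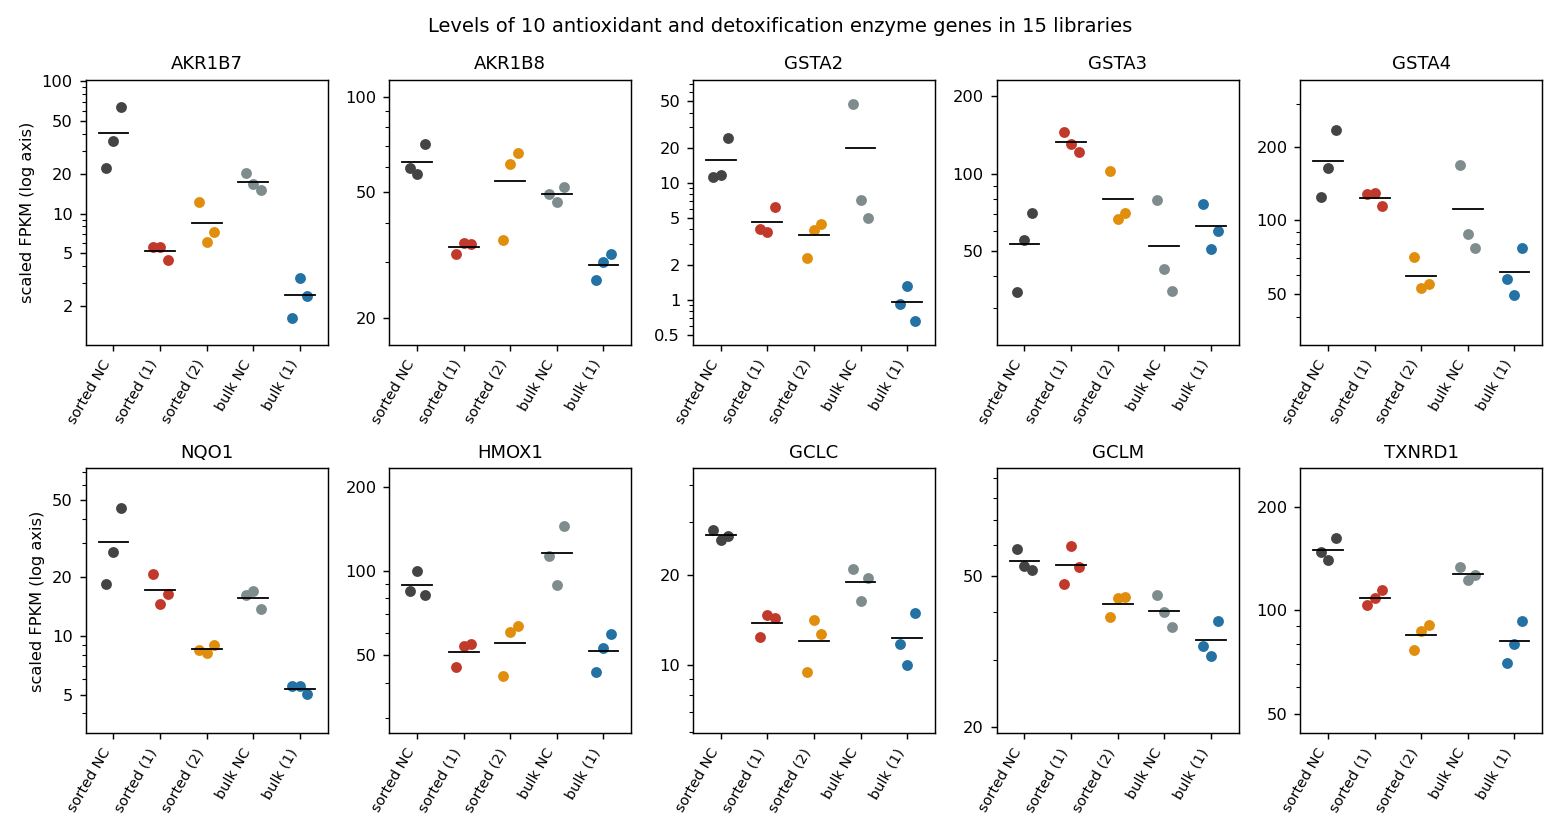
Scaled FPKM (log axis, a scale of its own per panel) of the 10 genes in each of 15 libraries, with 1 point per library, a black line for the group mean, NC for sh-NC and (1) and (2) for the shRNAs. AKR1B7 and GSTA2 lie lower in every knockdown library than in the sh-NC libraries of the same material, and GSTA3 is the gene whose sorted sh-B7-H3 (1) libraries (122 to 145) lie above sorted sh-NC (34.7 to 70.7).

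Across the set, levels spanned about an order of magnitude in control tumor cells. In sorted sh-NC the mean per-length level was highest for GSTA4, at 175 ± 56.1 scaled FPKM (SD, n = 3), and TXNRD1, at 150 ± 11.1, whose libraries overlapped. HMOX1 followed at 89.0 ± 9.69, above AKR1B8 (62.3 ± 7.25), GCLM (54.5 ± 3.77), GSTA3 (53.6 ± 18.0) and AKR1B7 (40.7 ± 21.6), which overlapped one another in part. NQO1 (30.3 ± 13.7), GCLC (27.1 ± 1.06) and GSTA2 (15.8 ± 7.37) were lowest, and NQO1 overlapped GCLC and GSTA2. The spread differed by gene: AKR1B7, GSTA2, GSTA3, GSTA4 and NQO1 each were highest in replicate 3 of sorted sh-NC, while GCLC and GCLM varied little between replicates.

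AKR1B7, one of the genes that led to the choice, had the most negative log2 fold changes of the set in sorted cells. In sorted sh-NC it stood at 22.3, 35.4 and 64.4 scaled FPKM, and in sorted sh-B7-H3 (1) at 5.58, 5.6 and 4.47. In sorted sh-B7-H3 (2) it stood at 12.2, 6.08 and 7.28. Every knockdown library lay below every control library, and the highest knockdown value was replicate 1 of sh-B7-H3 (2), the library with leukocyte RNA. The log2 fold changes were -2.62 ± 0.33 (SE) and -2.06 ± 0.38, and the latter was -2.32 without that library. In bulk tumors AKR1B7 stood at 20.2, 16.7 and 15.2 in sh-NC and at 1.63, 3.28 and 2.37 in sh-B7-H3 (1), a log2 fold change of -2.44 ± 0.19. None of these values has a test, since the fall was the reason for the choice.

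AKR1B8, its neighbour on chromosome 6, was called lower with sh-B7-H3 (1) and not with sh-B7-H3 (2). Sorted sh-NC libraries held 59.3, 57.1 and 70.6 scaled FPKM and sorted sh-B7-H3 (1) libraries 31.9, 34.5 and 34.3, with no overlap (log2 fold change -0.87 ± 0.13, adjusted p = 0.00344 by limma). In sorted sh-B7-H3 (2) the values were 35.2, 61.2 and 66.4. Replicate 1 again differed from the rest, and the log2 fold change of -0.24 ± 0.24 (limma adjusted p = 0.549) became 0.04 without it. Bulk tumors held 49.1, 46.6 and 51.7 in sh-NC and 26.4, 30.1 and 31.9 in sh-B7-H3 (1), again with no overlap (log2 fold change -0.72 ± 0.10, limma adjusted p = 0.00578). Both calls with sh-B7-H3 (1) were present in 12 of 13 settings. The sorted one was lost on FPKM as deposited (-0.68, limma adjusted p = 0.0752), and the bulk adjusted p reached 0.215 in limma. Of the 75-base stretches in AKR1B8 transcripts, 0.422% also occurred in AKR1B10, and AKR1B7 shared 0 with any other gene, so most reads of that length could tell these genes apart.

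GSTA2, the other gene that led to the choice, had the lowest group mean of the set in each sorted group, overlapping AKR1B7 in sorted sh-B7-H3 (1), and shares much sequence with its relatives. It stood at 11.3, 11.8 and 24.3 scaled FPKM in sorted sh-NC, at 4.07, 3.79 and 6.16 in sorted sh-B7-H3 (1) and at 2.29, 3.99 and 4.47 in sorted sh-B7-H3 (2). The knockdown groups lay below the controls and overlapped each other, with log2 fold changes of -1.51 ± 0.29 and -1.82 ± 0.31. Bulk sh-NC held 47.8, 7.10 and 5, so replicate 1 alone set the mean, and bulk sh-B7-H3 (1) held 0.913, 1.30 and 0.659. The log2 fold change in bulk, -2.78 ± 0.73, was -1.85 without bulk sh-NC replicate 1. These values have no test either. Of the 75-base stretches in GSTA2 transcripts, 36.6% occurred in another gene, 25.4% in GSTA1, 21.7% in Gm10639 and 14.1% in Gm3776, so how reads were divided among these genes is uncertain.

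GSTA3 was called higher with sh-B7-H3 (1) in sorted cells. Its libraries held 34.7, 55.2 and 70.7 scaled FPKM in sorted sh-NC against 145, 131 and 122 in sorted sh-B7-H3 (1), and the groups did not overlap (log2 fold change 1.35 ± 0.25, limma adjusted p = 0.00828). Sorted sh-B7-H3 (2) held 103, 66.8 and 70.2, of which replicate 1 alone exceeded all controls (log2 fold change 0.60 ± 0.28, limma adjusted p = 0.184). Without that library, which carried leukocyte RNA, the value was 0.41, and on FPKM as deposited it was 0.83 and called (limma adjusted p = 0.0436). In bulk tumors sh-NC (79.2, 42.5 and 35.1) and sh-B7-H3 (1) (76.2, 51.1 and 60.1) overlapped, with a log2 fold change of 0.32 ± 0.30 (limma adjusted p = 0.458). It was the single member above 0 in all 3 knockdown comparisons.

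GSTA4 was called lower with sh-B7-H3 (2) alone. Sorted sh-NC held 125, 164 and 236 scaled FPKM, sorted sh-B7-H3 (1) 128, 130 and 115, and sorted sh-B7-H3 (2) 70.5, 52.7 and 55. The sh-B7-H3 (1) libraries overlapped the lowest control, and the sh-B7-H3 (2) libraries lay below all other sorted libraries. The log2 fold changes were -0.44 ± 0.23 (limma adjusted p = 0.297) and -1.50 ± 0.24 (limma adjusted p = 0.00398). In bulk tumors sh-NC held 169, 88.2 and 77.2 and sh-B7-H3 (1) 57.6, 49.5 and 77.4, which overlapped by a narrow margin (log2 fold change -0.78 ± 0.31, limma adjusted p = 0.105).

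NQO1, often used as a readout of NRF2 activity, had its sorted groups in the same order as GSTA4. Sorted sh-NC held 18.6, 26.9 and 45.4 scaled FPKM, sorted sh-B7-H3 (1) 20.9, 14.6 and 16.4, and sorted sh-B7-H3 (2) 8.47, 8.13 and 8.99. Sorted sh-B7-H3 (2) was below every other sorted library (log2 fold change -1.63 ± 0.28, limma adjusted p = 0.00592), and sorted sh-B7-H3 (1) overlapped the controls (-0.70 ± 0.30, limma adjusted p = 0.193), although the latter was called with all 15 libraries in 1 fit (limma adjusted p = 0.0459) and without sorted sh-NC replicate 1 (-0.99, limma adjusted p = 0.0256). In bulk tumors it stood at 16.3, 17.1 and 13.8 in sh-NC and at 5.50, 5.50 and 5.05 in sh-B7-H3 (1), well separated (log2 fold change -1.39 ± 0.11, limma adjusted p = 0.00212). This bulk call held in all 13 settings tried, the one in use included.

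HMOX1, the haem oxygenase that macrophages also express, was called lower in all 3 knockdown comparisons. Sorted sh-NC held 85.0, 100 and 82.0 scaled FPKM, sorted sh-B7-H3 (1) 45.3, 54.0 and 55.1, and sorted sh-B7-H3 (2) 42.2, 60.8 and 63.9, with no overlap between knockdown and control. The log2 fold changes were -0.78 ± 0.15 (limma adjusted p = 0.00945) and -0.69 ± 0.18 (limma adjusted p = 0.0373). The first was lost in 4 of 13 settings, among them those without sorted sh-NC replicate 2 and without sorted sh-B7-H3 (1) replicate 1 (-0.69 in both). The second was lost in 9 of 13 settings, among them those without the replicate 1 that carried leukocyte RNA (-0.50), replicate 2 (-0.76) or 3 (-0.79) of its group, and sorted sh-NC replicate 2 (-0.60) or 3 (-0.74). In bulk tumors sh-NC held 113, 88.9 and 145 and sh-B7-H3 (1) 43.5, 53.1 and 59.5 (log2 fold change -1.12 ± 0.20, limma adjusted p = 0.0116), a call lost without sh-B7-H3 (1) replicate 1 (-1). The summed macrophage markers were 588 to 903 in bulk sh-NC against 619 to 1115 after knockdown, and 30.9 to 44.3 in sorted sh-NC against 68.0 to 94.8 in sorted sh-B7-H3 (1) and 61.6, 72.3 and 397 in sorted sh-B7-H3 (2). CD68 made up most of the sorted sums outside that last library, with means of 29.8 in sorted sh-NC and 65.0 in sorted sh-B7-H3 (1). The part of macrophages in the HMOX1 values was not tested. In RNA from tissue, fewer cells of a type and less RNA per cell cannot be told apart.

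Of the subunits of glutamate-cysteine ligase, the catalytic one was called lower in all 3 knockdown comparisons and the modifier in none. GCLC stood at 28.3, 26.2 and 26.9 scaled FPKM in sorted sh-NC, at 12.4, 14.7 and 14.4 in sorted sh-B7-H3 (1) and at 9.50, 14.2 and 12.7 in sorted sh-B7-H3 (2). Every knockdown library held less than every control, with log2 fold changes of -0.93 ± 0.12 (limma adjusted p = 0.00159) and -1.11 ± 0.16 (limma adjusted p = 0.00218). Both calls held in all 13 settings. In bulk tumors GCLC went from 20.9, 16.4 and 19.5 to 11.8, 10 and 15 (log2 fold change -0.60 ± 0.16, limma adjusted p = 0.0408), a call that was present in 7 of 13 settings and was lost without any 1 sh-NC library (-0.52 to -0.69) or replicate 1 of sh-B7-H3 (1) (-0.58).

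GCLM, the modifier subunit, was called in none of the 3 limma comparisons with sh-NC. It stood at 58.8, 53.1 and 51.7 scaled FPKM in sorted sh-NC, at 47.5, 59.7 and 52.6 in sorted sh-B7-H3 (1) and at 39.0, 43.6 and 43.9 in sorted sh-B7-H3 (2). The first knockdown group overlapped the controls (log2 fold change -0.04 ± 0.14, limma adjusted p = 0.915), a value that was 0.16 on FPKM as deposited. The second lay below them by a smaller margin than GCLC (-0.36 ± 0.12, limma adjusted p = 0.0783, unadjusted 0.0179). It was called in 1 of 13 settings, with all 15 libraries in 1 fit (limma adjusted p = 0.0306). In bulk tumors the groups overlapped (log2 fold change -0.25 ± 0.12, limma adjusted p = 0.150). Of its 75-base stretches, 2.84% occurred in another gene.

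TXNRD1 took 3 separate levels in the sorted groups. It stood at 148, 140 and 162 scaled FPKM in sorted sh-NC, at 104, 109 and 115 in sorted sh-B7-H3 (1) and at 76.9, 86.9 and 90.7 in sorted sh-B7-H3 (2), and no group overlapped another. The call was made for sh-B7-H3 (2) (log2 fold change -0.82 ± 0.13, limma adjusted p = 0.00460) and narrowly missed for sh-B7-H3 (1) (-0.45 ± 0.13, limma adjusted p = 0.0662, unadjusted 0.00994). The latter was called without a filter (0.0429), with all 15 libraries in 1 fit (0.012) and without sorted sh-NC replicate 1 (0.0482), each an adjusted p of limma. The former was lost on FPKM as deposited (-0.59, limma adjusted p = 0.119). In bulk tumors it stood at 134, 123 and 127 in sh-NC and at 70.1, 79.9 and 93.4 in sh-B7-H3 (1) (log2 fold change -0.66 ± 0.12, limma adjusted p = 0.0135), a call lost without sh-NC replicate 3 (-0.66) or sh-B7-H3 (1) replicate 1 (-0.56).

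**Figure D2:**
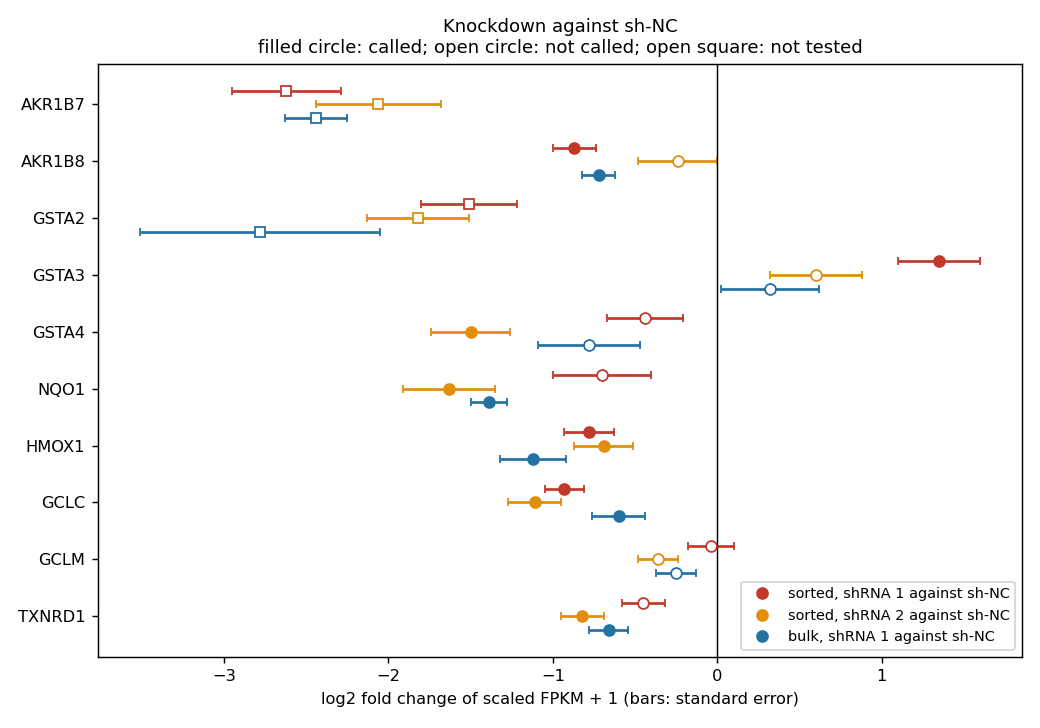
Log2 fold change of scaled FPKM + 1 against sh-NC for the 10 genes in 3 comparisons, with bars for the standard error, filled circles for called, open circles for not called and open squares for AKR1B7 and GSTA2, which have no test. All genes but GSTA3 lie left of 0 in each comparison, from -2.78 (GSTA2, bulk) to -0.04 (GCLM, sorted sh-B7-H3 (1)).

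Counted over the 8 genes that were tested, sorted sh-B7-H3 (1) had 3 called lower (AKR1B8, HMOX1 and GCLC) and 1 called higher (GSTA3), where 4.38% of all 11163 genes were called lower and 9.03% higher. Sorted sh-B7-H3 (2) had 5 called lower (GSTA4, NQO1, HMOX1, GCLC and TXNRD1) and 0 higher at adjusted p below 0.05 in limma, against 7.44% lower and 11.7% higher of 11243 genes. GSTA3 stood at an unadjusted p of 0.0636 there. Bulk sh-B7-H3 (1) had 5 called lower (AKR1B8, NQO1, HMOX1, GCLC and TXNRD1) and 0 higher in limma, against 8.52% lower and 12.8% higher of 11800 genes, with GSTA3 at an unadjusted p of 0.320. These comparisons were the ones that led to the choice of genes, and nothing is read from the counts. Other scalings moved the balance over all genes: 67.3%, 61.1% and 60.1% of called genes were higher in the 3 comparisons, 84.2%, 83.2% and 70.2% on FPKM as deposited and 57.4%, 50% and 46.5% after quantile normalization. FPKM as deposited also moved the median of all genes to 0.17 and 0.21 in the sorted comparisons. The median log2 fold changes of the 8 genes were -0.58, -0.75 and -0.69, beside 0.00, 0.01 and 0.02 over all genes tested. Both sorted comparisons share the same 3 sh-NC libraries, so they are not independent of each other. The count with sh-B7-H3 (1) was 7 without sorted sh-NC replicate 1, when GSTA4, NQO1 and TXNRD1 were called too, and 2 on FPKM as deposited. On that scale GSTA3 was called higher and HMOX1 and TXNRD1 were not called with sh-B7-H3 (2). The bulk count was 2 on FPKM as deposited, 3 without bulk sh-NC replicate 3 and 2 without bulk sh-B7-H3 (1) replicate 1.

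The comparison of the shRNAs with each other does not use the control libraries. Its knockdown libraries took part in the choice of AKR1B7 (-0.57 ± 0.22) and GSTA2 (0.32 ± 0.23), which are given without a test. GSTA4 and NQO1 differed: sorted sh-B7-H3 (1) exceeded sorted sh-B7-H3 (2) by 1.06 ± 0.13 on the log2 scale for GSTA4 (limma adjusted p = 0.00840) and by 0.93 ± 0.13 for NQO1 (limma adjusted p = 0.0167), in 3 of 3 libraries each. These were 2 of the 8 other members called higher and 0 called lower in limma, where 1.76% of 11239 genes were called higher and 1.64% lower. AKR1B8 (-0.63 ± 0.22, unadjusted p = 0.0221 in limma) was the one of the 8 lower in sh-B7-H3 (1) at an unadjusted p under 0.05. CD276, the target, was called lower in sorted sh-B7-H3 (1) than in sorted sh-B7-H3 (2) (-1.16 ± 0.20, limma adjusted p = 0.0277). In this pair of groups the deviations of same-numbered libraries correlated weakly (0.21 to 0.23), and a pairing is assumed rather than given in the sources. With the replicate number as a block, limma called 5 members higher, where 9.03% of genes were higher and 7.55% lower, and AKR1B8 (0.0621) was not called. The 5 were GSTA3 (0.75 ± 0.10, limma adjusted p = 0.0200), GSTA4 (0.0109), NQO1 (0.0172), GCLM (0.33 ± 0.06, 0.0348) and TXNRD1 (0.36 ± 0.05, 0.0231). Over 13 settings the adjusted p ran from 0.00381 to 0.226 for GSTA3, 0.00115 to 0.0573 for GSTA4, 0.0120 to 0.0704 for NQO1, 0.0348 to 0.352 for GCLM and 0.0231 to 0.348 for TXNRD1.

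Replicate 1 of sorted sh-B7-H3 (2), with its leukocyte sum of 380, bears on this comparison. Without it 4 members were called, with AKR1B8 (-0.91) and GSTA3 (0.94) added to GSTA4 (1.19) and NQO1 (0.92). Without sorted sh-B7-H3 (2) replicate 3 none was called in limma, although GSTA4 (1.02) and NQO1 (0.96) kept their size, and the count was 1 without replicate 2 of that group or replicate 3 of sorted sh-B7-H3 (1). HMOX1 (-0.09 ± 0.17) and GCLC (0.19 ± 0.15) were not called in any of the 13 settings.

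**Figure D3:**
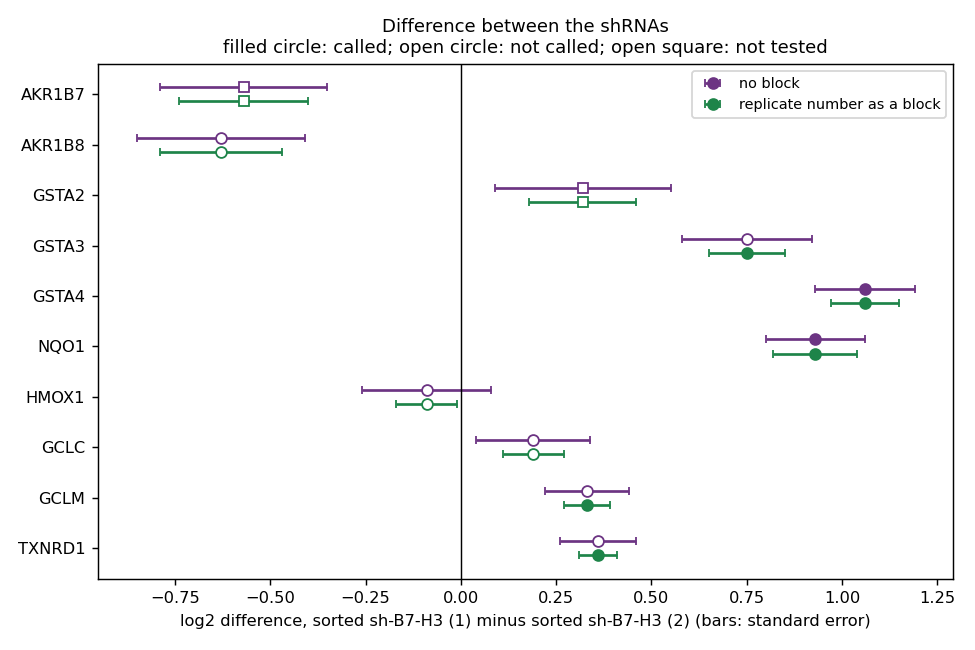
Log2 difference of sorted sh-B7-H3 (1) minus sorted sh-B7-H3 (2) for the 10 genes, with bars for the standard error, filled circles for called genes, open circles for genes not called and open squares for AKR1B7 and GSTA2, which have no test, once without and once with the replicate number as a block. GSTA4 (1.06) and NQO1 (0.93) are called in both, GSTA3, GCLM and TXNRD1 with the block only, and AKR1B7 and AKR1B8 lie below 0.

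Whether the effect of sh-B7-H3 (1) differed between sorted cells and bulk tumors was tested as an interaction. None of the 8 tested members was called in limma, where 0.464% of 12062 genes were, and 1 of them, GSTA3 (difference 1.03 ± 0.42, limma adjusted p = 0.321), stood at an unadjusted p under 0.05. For NQO1 the difference was 0.69 ± 0.35 (limma adjusted p = 0.373), and for the other 6 it lay between -0.33 for GCLC and 0.34 for GSTA4 and HMOX1. AKR1B7 (-0.18 ± 0.43) and GSTA2 (1.27 ± 0.86) are given without a test. The GSTA2 value was 0.34 without bulk sh-NC replicate 1.

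In the control tumors alone, 9 of 10 members had a log2 difference below 0 between bulk tissue and sorted tumor cells, as had 46.4% of all genes, and GSTA3 (-0.06) turned to 0.04 after quantile normalization. GCLC was the 1 of 8 tested members called by limma (log2 difference -0.50 ± 0.13, adjusted p = 0.0369), where 6.48% of 11418 genes were called lower and 10.4% higher in bulk. Of its called genes 61.5% were higher, 79.8% on FPKM as deposited and 43.8% after quantile normalization. GCLC held 20.9, 16.4 and 19.5 in bulk sh-NC and 28.3, 26.2 and 26.9 in sorted sh-NC. The call was lost on FPKM as deposited (-0.64). The sh-NC libraries took part in the choice of AKR1B7 (-1.06 ± 0.34) and GSTA2 (-0.25 ± 0.73), which have no test here either. In 6 of the 10 members every bulk library lay below every sorted one, as in 16.9% of all genes, and in 0 above, as in 21.3%. The 6 were GCLC, AKR1B7, GCLM (-0.43 ± 0.13, limma adjusted p = 0.0613), NQO1 (-0.82 ± 0.29, 0.0885), AKR1B8 (-0.33 ± 0.13, 0.126) and TXNRD1 (-0.22 ± 0.13, 0.275). HMOX1 was the single gene with a log2 difference above 0 (0.35 ± 0.20, limma adjusted p = 0.248), where the macrophage sum was 588 to 903 against 30.9 to 44.3, and the part of other cells in these levels was not tested. The count was 0 without any 1 library other than sorted sh-NC replicate 1, and 3 without that library.

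The genes for NRF2 and its inhibitor KEAP1 were not called in any knockdown comparison. NFE2L2 stood at 127, 103 and 92.5 scaled FPKM in sorted sh-NC, at 98.4 to 104 in sorted sh-B7-H3 (1) and at 93.0 to 97.3 in sorted sh-B7-H3 (2), with log2 fold changes of -0.07 ± 0.15 and -0.16 ± 0.15 (limma adjusted p = 0.852 and 0.522). KEAP1 stood at 14 to 16, 14.6 to 15.5 and 13.2 to 13.8, with -0.01 ± 0.12 and -0.16 ± 0.11 (limma adjusted p = 0.964 and 0.405). On FPKM as deposited, all 4 values were above 0. In bulk tumors the log2 fold changes were -0.07 ± 0.13 for NFE2L2 and -0.22 ± 0.09 for KEAP1 (limma adjusted p = 0.712 and 0.113). Among 11 genes for NRF2 and its regulators, MAFF (-0.81 ± 0.20 and -0.98 ± 0.21) was called lower and MAFK (0.74 ± 0.14 and 0.57 ± 0.12) higher with both shRNAs in sorted cells. SQSTM1, an adaptor that binds KEAP1, was called lower with sh-B7-H3 (2) and in bulk (-0.81 and -0.87). NFE2L3, a relative of NRF2, was called higher with sh-B7-H3 (2) (1.59) and stood at 1.30 in bulk. Both were named after their values were seen. NFE2L3 passed the filter through the knockdown libraries, with 1 of 3 sorted and 0 of 3 bulk sh-NC libraries at 1 scaled FPKM or more. In bulk it thus had to differ, and its value there is no test, while the counts of called genes below include it. The MAFF call with sh-B7-H3 (1) was lost without any 1 library other than sorted sh-NC replicate 1 (from -0.64 to -0.86), that with sh-B7-H3 (2) without sorted sh-NC replicate 2 (-0.81) or replicate 2 or 3 of its own group (-0.93 in both). The MAFK calls were lost without replicate 1 (0.64) or 3 (0.75) of sorted sh-B7-H3 (1), and without replicate 1, 2 or 3 of sorted sh-B7-H3 (2) (0.53 to 0.59). In bulk MAFF was called lower (-1.29 ± 0.22, limma adjusted p = 0.0113) and MAFK was not called (0.19 ± 0.10, 0.213). MAFF and MAFK encode small MAF proteins, the partners of NRF2 on DNA. NRF2 is controlled mainly as a protein, which RNA does not show.

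Around the pathway 106 further genes were taken in 10 lists, and GSTA1, whose reads may be in part those of GSTA2, was left out of the counts. With sorted sh-B7-H3 (1) 12 of 94 tested were called lower and 9 higher (median log2 fold change -0.18), where 4.38% of all genes were called lower and 9.03% higher. With sorted sh-B7-H3 (2) 30 of 94 were lower and 8 higher (median -0.23), against 7.44% and 11.7% of all genes. In bulk 38 of 95 were lower and 9 higher (median -0.33), against 8.52% and 12.8%. The medians over all genes were 0.00, 0.01 and 0.02. Without sorted sh-B7-H3 (2) replicate 1 the second comparison had 24 of 93 lower and 6 higher (5.07% and 7.38% of all genes), and without bulk sh-B7-H3 (1) replicate 2 the bulk one had 42 of 94 lower and 12 higher (16.2% and 16.8% of all genes). Some called genes passed the filter with fewer than 3 libraries of the lower group at 1 scaled FPKM: 1 called lower and 2 higher, 4 lower and 3 higher, and 2 lower and 2 higher in these comparisons. Between the shRNAs 10 of 92 were called higher with sh-B7-H3 (1) and 2 lower, against 1.76% and 1.64% of all genes. Of these, 2 called higher (GSTM3 and AKR1C14) and 1 called lower (NFE2L3) had fewer than 3 libraries of the lower group at 1 scaled FPKM. Shared stretches were counted for the members only, and genes that share exons, such as UGT1A6A and UGT1A7C, entered these counts separately. Called genes went both ways in several lists, and the lists were drawn up with earlier results of these data known.

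In glutathione supply and recycling, with 8 genes, 3 were called lower and 1 higher with sorted sh-B7-H3 (1), and 4 lower and 1 higher with sorted sh-B7-H3 (2), where 4.38% lower and 9.03% higher, and 7.44% lower and 11.7% higher, were the shares of all genes. SLC7A11, the cystine importer, went from 4.08 ± 0.614 scaled FPKM in sorted sh-NC (SD, n = 3) to 1.30 ± 0.227 and 1.01 ± 0.0831 (log2 fold changes -1.14 ± 0.14 and -1.33 ± 0.13), with 2 of 3 sorted sh-B7-H3 (2) libraries at 1 scaled FPKM or more. OPLAH, the oxoprolinase that returns glutamate to the cycle, went from 3.82 ± 0.263 to 0.700 ± 0.183 and 1.54 ± 0.731. It passed the filter with 0 of 3 sorted sh-B7-H3 (1) and 2 of 3 sorted sh-B7-H3 (2) libraries at 1 scaled FPKM or more. With sh-B7-H3 (1) it passed through sorted sh-NC alone and so had to differ. Its p-values are left out in both comparisons, while the counts of called genes above include it. Its log2 fold change with sh-B7-H3 (2), -0.97, was -0.70 without the library with leukocyte RNA. GGT1, the cell surface enzyme that cleaves extracellular glutathione, went the other way, from 1.62 ± 0.326 to 17.0 ± 2.19 and 16.8 ± 1.66 (2.78 ± 0.15 and 2.77 ± 0.14), and from 2.19 ± 0.444 to 12.4 ± 2.46 in bulk (2.06 ± 0.17). SLC7A11 and GGT1 were called by limma, with adjusted p from 5.5e-05 to 0.00225 in the comparisons given.

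Among 19 other glutathione S-transferases, GSTA1 left out, sorted sh-B7-H3 (1) had 0 of 18 called lower and 3 higher in limma (4.38% and 9.03% of all genes), with GSTP2 the 1 lower at an unadjusted p under 0.05 (0.0435), and sorted sh-B7-H3 (2) had 6 of 17 lower and 3 higher (7.44% and 11.7% of all genes). GSTO1 (1.40 ± 0.25 and 0.90 ± 0.21) rose with both. GSTM4 was called higher with both (0.73 ± 0.15 and 0.84 ± 0.17), but it passed the filter through the knockdown libraries, since 1 of 3 sorted sh-NC libraries reached 1 scaled FPKM (mean 0.788 ± 0.26). The GSTO1 call with sh-B7-H3 (2) was lost without sorted sh-NC replicate 2 (0.97) or any 1 library of its group (0.88 to 0.91), and the GSTM4 call with sh-B7-H3 (1) without replicate 1 (0.72) or 3 (0.67) of its group. GSTA1, which shares stretches with GSTA2, held 26.2, 31.0 and 53.8 scaled FPKM in sorted sh-NC, 13.9, 10.3 and 10.4 in sorted sh-B7-H3 (1) and 6.84, 10.2 and 12.1 in sorted sh-B7-H3 (2). Its reads may be in part those of GSTA2, and it is given as values with no test. No glutathione peroxidase of 4 tested was called by limma in sorted cells, where GPX1 with sh-B7-H3 (2) was the single value at an unadjusted p under 0.05 (0.0458).

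SRXN1, the sulfiredoxin that restores peroxiredoxins, was the 1 gene called lower of 13 in the list of thioredoxins and peroxiredoxins with either shRNA in sorted cells, where 4.38% and 7.44% of all genes were. It stood at 75.8, 74.5 and 97.9 scaled FPKM in sorted sh-NC, at 40.2, 44.2 and 52.4 in sorted sh-B7-H3 (1) and at 28.2, 30.2 and 31.2 in sorted sh-B7-H3 (2). The groups did not overlap, and its difference between the shRNAs was called (0.59 ± 0.11, limma adjusted p = 0.0381). In bulk 5 of the 13 were called lower, against 8.52% of all genes. CAT, the catalase, went from 262 ± 11.4 to 139 ± 28.7 and 84.6 ± 5.30 (log2 fold changes -0.92 ± 0.18 and -1.62 ± 0.13). The SRXN1 call with sh-B7-H3 (1) was lost without replicate 1 (-0.76) or 2 (-0.82) of that group, and that of CAT without replicate 1 (-0.78) or 3 (-0.92) of it or sorted sh-NC replicate 2 (-0.91). On FPKM as deposited both of these calls were lost (limma adjusted p = 0.107 and 0.0631), and with the replicate block that of CAT was (0.0547). In bulk SRXN1 was called lower (-1.21 ± 0.11, limma adjusted p = 0.00245) and CAT was not called (-0.44 ± 0.15, 0.0796). SOD3, the extracellular superoxide dismutase, fell by 1.37 and 1.27 on the log2 scale, and in bulk stood at -0.09 ± 0.37 (limma adjusted p = 0.876).

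Of the enzymes that clear carbonyls, 17 were tested. With sorted sh-B7-H3 (1) 4 were called lower and 2 higher (4.38% and 9.03% of all genes), and with sorted sh-B7-H3 (2) 5 were lower (7.44% of all genes). PTGR1, which reduces prostaglandins and other unsaturated carbonyls, held 43.2, 61.6 and 88.0 scaled FPKM in sorted sh-NC against 26.7, 22.6 and 23.9 and 26.1, 18.0 and 19.1 in the knockdown groups (-1.31 ± 0.24 and -1.52 ± 0.26). ALDH3A2, a fatty aldehyde dehydrogenase, fell by 0.64 and 0.77 on the log2 scale, the first lost without sorted sh-NC replicate 2 (-0.71) or any 1 library of sorted sh-B7-H3 (1) (-0.55 to -0.72). For NADPH supply, 1 and 3 of 6 genes were called lower, beside the same shares of all genes, and PGD, an enzyme of the pentose phosphate pathway, went from 187 ± 2.65 to 104 ± 11.4 and 72.9 ± 4.30 (-0.85 ± 0.14 and -1.35 ± 0.12). For haem and iron handling, limma called 0 of 8 with sh-B7-H3 (1), where 2 stood at an unadjusted p under 0.05, 4 lower with sh-B7-H3 (2) (BLVRB, FTH1, SLC40A1 and FECH, against 7.44% of all genes) and 5 lower in bulk (8.52% of all genes).

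Conjugation and export held called genes in both directions. ABCC3, an exporter of conjugates, went from 1.39 ± 0.229 scaled FPKM in sorted sh-NC to 10.9 ± 1.54 in sorted sh-B7-H3 (1) and 4.40 ± 0.460 in sorted sh-B7-H3 (2) (log2 fold changes 2.31 ± 0.15 and 1.18 ± 0.13). ABCG2, another exporter, rose by 0.74 ± 0.15 and 2.39 ± 0.35, the first lost without sorted sh-B7-H3 (1) replicate 3 (0.66) and the second 2.83 without the library with leukocyte RNA. It reached 1 scaled FPKM in 2 of 3 sorted sh-NC libraries. The order of the shRNAs was opposite in these genes, with log2 differences of 1.14 ± 0.13 for ABCC3 and -1.65 ± 0.33 for ABCG2 (limma adjusted p = 0.00611 and 0.0411). UGT1A6A and UGT1A7C, which add glucuronic acid to phenols, were called lower with sh-B7-H3 (2) and in bulk, and were named after their values were seen. They share exons, so how reads were divided between them is uncertain.

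**Figure D4:**
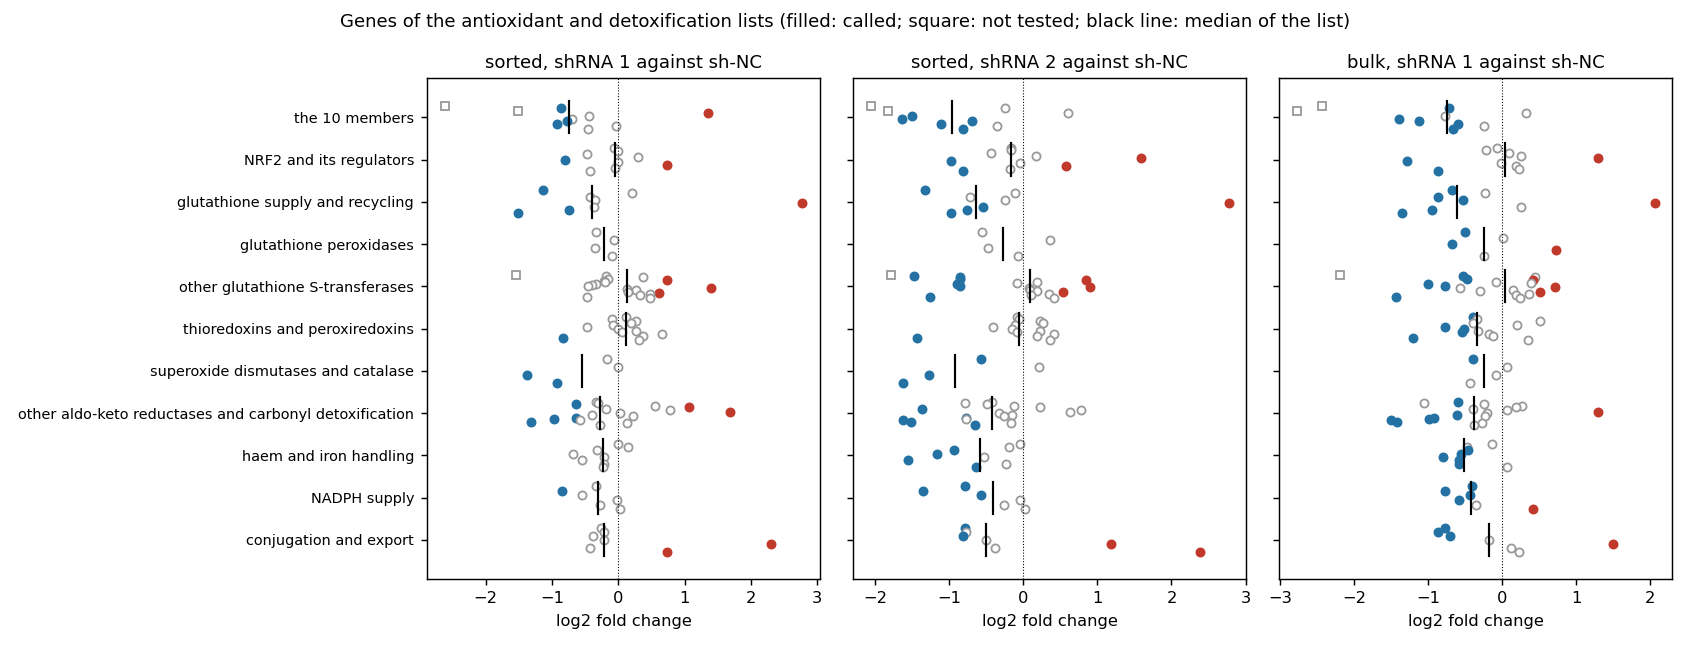
Log2 fold changes against sh-NC of the 10 members and of the tested genes of 10 related lists in 3 comparisons, with 1 symbol per gene, blue for called lower, red for called higher, grey for not called, grey squares for AKR1B7, GSTA2 and GSTA1, which have no test, and a black line for each list's median. GGT1 lies far to the right in each panel (2.78, 2.77 and 2.06), and AKR1B7 and GSTA2 lie far to the left.

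The genes whose pattern over the 15 libraries was most like that of AKR1B7, by Pearson's r of log2 values among 11594 genes, were GLUD1, PTGR1 and ANXA2 (r = 0.96 each) and CNOT10 and ADA (0.95 each). For GSTA2 they were GM10639 (0.99), GSTA1 (0.96), GM3776 (0.95), GPR137B (0.89) and GSS (0.87), of which the first 3 share sequence with it. These values describe libraries that fall into 5 groups with different means, and carry no p. Among the members the pair with the highest r was GCLC and TXNRD1 (0.91), followed by GSTA4 and NQO1 (0.88) and by NQO1 and TXNRD1 (0.88). GSTA3 had the lowest values, down to -0.65 with HMOX1.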

How the data were processed

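RNA of 105K tumors was measured by sequencing in 15 libraries, which GEO's labels place in 5 groups of 3. Per the methods, reads were single-end and 75 bases long and were handled with a core facility's VIPER pipeline. The kit is given differently in the labels and in the methods, the submitters' processing notes name the mm10 build, and the aligner, counter and annotation are not given in the sources used here. The authors deposited a table of FPKM per gene and library, without raw counts. The table's name speaks of counts, and its unit was read from the values, which are decimals that step by gene. A second deposited table, of log2 values for a subset of genes chosen by a criterion not stated, was not used. The 10 genes, the related lists and the tests were chosen with earlier results of these data known. AKR1B7 and GSTA2 have no test in any comparison, since all of them use libraries that led to the choice, and GSTA1, which shares sequence with GSTA2, has none either.

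Of 24917 entries, 26 with names turned into dates were left out, and all columns were mapped to a sample. A single short RNA, MIR6236, took 6.01% to 79.7% of summed FPKM, so each library was divided by the median of its ratios to the geometric mean over 9872 genes at 1 FPKM or more in every library. Absolute depth is unknown, and no interval that needs it is given. Genes at 1 scaled FPKM in at least 3 libraries of a comparison were tested on log2(scaled FPKM + 1) with limma 3.58.1 (R 4.3.3), fitting the groups compared, with Benjamini-Hochberg adjustment and a threshold of 0.05. Fold changes on this scale understate the change of low genes. Tables were made with Python 3.11.15, numpy 2.4.6 and pandas 2.3.3, and the fitting steps were tested on simulated data. Named genes were the 10 members, CD276, NFE2L2, KEAP1, up to 3 genes per list called in the same direction with both shRNAs in sorted cells, the 5 genes nearest to AKR1B7 and GSTA2 by correlation, and markers.

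Replicate numbers are shared between groups in the labels. Deviations of same-numbered sorted sh-B7-H3 (1) and sorted sh-B7-H3 (2) libraries correlated weakly in every pair (0.21, 0.23 and 0.21). The sources give no pairing, and differently numbered libraries were not compared. A pairing of those groups is thus an assumption from these same data, and blocked values are given beside the others. In no other comparison did every pair correlate above 0.1. Alternatives were FPKM as deposited, quantile normalization, a pseudocount of 0.1, no filter, all 15 libraries in 1 fit, the replicate block, and leaving out each library.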

Additional observations from a re-analysis of the deposited data

Results flagged for a closer look

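GSTA4 and NQO1 were singled out because the effects of the shRNAs, measured against the same control, differed by a test of the difference itself. Sorted sh-B7-H3 (1) exceeded sorted sh-B7-H3 (2) by 1.06 on the log2 scale for GSTA4 (limma adjusted p = 0.0084, 0.00115 to 0.0573 over 13 settings) and by 0.93 for NQO1 (limma adjusted p = 0.0167, 0.012 to 0.0704 over 13 settings), each in 3 of 3 libraries.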

How the results depend on the processing

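Of 360 values of the 10 genes under other settings of the whole set of libraries, 328 kept their direction and side of the threshold, and of 420 with 1 library left out 376 did. With FPKM as deposited, members called were 2 with sorted sh-B7-H3 (1), 2 in bulk and 0 between control materials, and genes called were 961 in bulk (against 2520), 128 for the interaction (against 56) and 652 between control materials (against 1924). On that scale GCLM (0.16), NFE2L2 (0.13) and KEAP1 (0.17) with sorted sh-B7-H3 (1), NFE2L2 (0.07) and KEAP1 (0.06) with sorted sh-B7-H3 (2), and the interaction of AKR1B8 (0.01) turned positive. Quantile normalization turned NFE2L2 in bulk (0.07), the interaction of AKR1B7 (0.18) and GSTA3 between control materials (0.04), and a pseudocount of 0.1 turned the interaction of AKR1B7 (0.02) and gave 25 interaction genes. Without a filter, 137 genes (against 382) and 1 member were called between shRNAs, and 2 members between control materials. With all 15 libraries in 1 fit, 1 member was called between shRNAs, 36 genes for the interaction, and 3082 genes and 3 members between control materials.

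The replicate block gave 915 genes with sorted sh-B7-H3 (1) (against 1497), 1395 with sorted sh-B7-H3 (2) (against 2150), 1413 in bulk and 24 for the interaction. Between shRNAs, where a pairing was assumed from the data, it gave 1864 genes and 5 members. In every comparison the sources give only a shared number.

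With 1 library left out, genes called ran from 722 to 1948 and members from 3 to 7 with sorted sh-B7-H3 (1), from 962 to 3614 and 4 to 5 with sorted sh-B7-H3 (2), from 35 to 890 and 0 to 4 between shRNAs, from 546 to 3793 and 2 to 5 in bulk, from 12 to 72 and 0 to 0 for the interaction, and from 139 to 4436 and 0 to 3 between control materials. Values that crossed 0 ran from -0.12 to 0.04 (GCLM), -0.17 to 0.06 (NFE2L2) and -0.07 to 0.02 (KEAP1) with sorted sh-B7-H3 (1), from -0.41 to 0.04 (AKR1B8) and -0.07 to 0.40 (CD276) with sorted sh-B7-H3 (2), and from -0.28 to 0.02 (HMOX1) between shRNAs. They ran from -0.16 to 0.05 (CD276) and -0.14 to 0.04 (NFE2L2) in bulk, from -0.54 to 0.21 (AKR1B7) for the interaction, and from -1.19 to 0.33 (GSTA2) and -0.40 to 0.17 (GSTA3) between control materials. The cause of these changes was not tested. With 3 libraries a group and no counts in the table, the depth behind each value is unknown.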
